A study of Mus musculus with 6 samples.

Results

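The 32 genes described here make cholesterol, sense it, move it between membranes and send it out of the cell. They were chosen by name and role, with earlier results of these data known. All 32 were found among the 17023 genes of the expression table and passed the filter on low counts. They were measured by RNA-seq in airway smooth muscle cells, the contractile cells around the airways, grown as primary cells from the lungs of wild-type (WT) mice. In the co-culture group (3 libraries, 1 to 3), muscle cells shared transwell plates with mouse airway epithelial cells for 5 days. In the control group (3 libraries, 4 to 6), muscle cells were kept for 5 days without epithelial cells. A transwell holds the cell types on either side of a porous membrane, and the RNA came from the lysed muscle cells. The labels name no strain, age, sex, passage or number of separate cultures. The p-values therefore speak only to the spread among these libraries, which may be technical.

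Cells make cholesterol from acetyl-CoA through mevalonate, farnesyl pyrophosphate, squalene and lanosterol. When membrane sterol is scarce, the escort protein SCAP carries the SREBP transcription factors to the Golgi, where they are cut and released to switch on the synthesis genes. When sterols or oxysterols such as 25-hydroxycholesterol are plentiful, INSIG proteins hold SCAP back, and oxysterols activate the nuclear receptors LXR, which switch on cholesterol export. In smooth muscle, cholesterol is also a building block of caveolae, the membrane pits that hold signalling receptors.

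In co-culture, Ch25h, which makes 25-hydroxycholesterol, rose 8.49-fold. The sterol exporter Abcg1, already the lowest of the 32 per gene length in controls, fell to a still lower level. Mylip, another LXR target, the SREBP brake Insig1 and the late synthesis enzymes Sc5d and Hsd17b7 fell by smaller amounts. No other member passed the test, and 15 of the 17 synthesis genes, from Hmgcs1 to Dhcr7, did not. The members called were thus 6 of 32 (18.8%), 1 higher and 5 lower, beside 20.6% of the 12936 genes tested (quasi-likelihood test of edgeR, adjusted p under 0.05 by Benjamini-Hochberg over all genes). By direction the background was 10.3% higher and 10.3% lower. The share of members called is near that of all genes, so the number of calls does not set these genes apart. Groups did not overlap for 11 members (34.4%), 3 higher and 8 lower, beside 42.9% of all genes. The median log2 fold change was -0.12 over the 32 members and -0.04 over all genes.

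**Figure D1:**
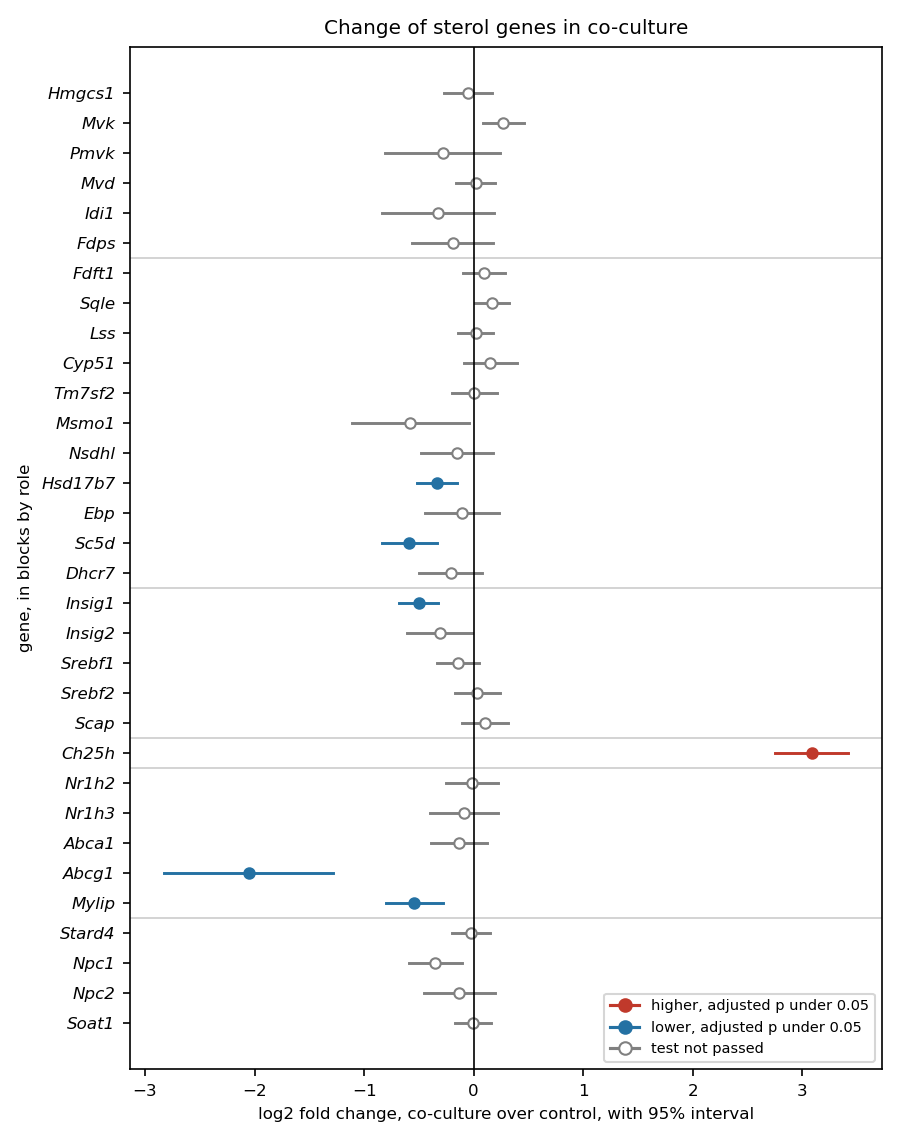
Log2 fold change of each of the 32 genes, co-culture over control, with its 95% interval, in blocks by role from the mevalonate pathway at the top to cholesterol traffic at the bottom. Filled red and blue points passed the test, upward and downward, and open grey points did not. Ch25h stands at 3.09 and Abcg1 at -2.06, while every other gene lies between -0.59 and 0.27.

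**Figure D2:**
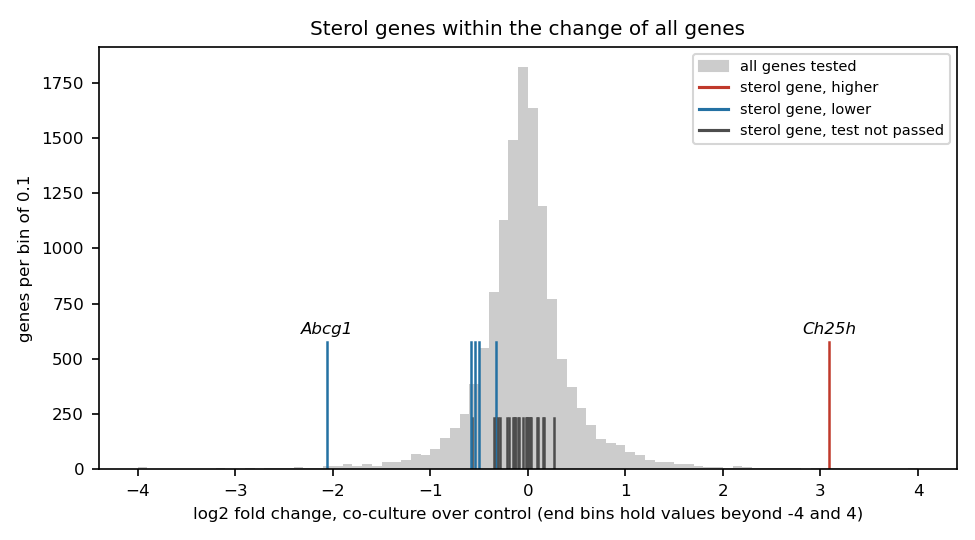
Number of genes per bin of 0.1 in log2 fold change, co-culture over control, for the 12936 genes tested (grey), with a line at the value of each sterol gene. Most sterol genes lie in the central peak, and Ch25h at 3.09 and Abcg1 at -2.06 lie in the tails.

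Total estimated counts were 17496056 to 18496623 per co-culture library and 17997380 to 18410934 per control library. Levels are counts scaled to 1000000 per TMM-normalised library (CPM), except where a level per gene length is named. Control library 4 was unlike the other controls. Its difference over genes from libraries 5 and 6 was 95.8 and 104 times counting noise (chi-square per degree of freedom), against 3.27 between libraries 5 and 6 and 4.11 to 6.77 among co-culture libraries. Co-culture libraries differed from control libraries 5 and 6 by 47.8 to 59.3 on this measure, less than library 4 did. They differed from library 4 by 115 to 127. Genes of at most 1000 bases were higher in library 4 than in the other controls by a median of 0.87 on the log2 scale, and genes of over 5000 bases were lower, with a median of -0.15. The part of this length pattern in the results was not tested. Co-culture over control, the median log2 fold change was -0.30 in genes of at most 1000 bases, 2 of them members. It was 0.006 in genes over 5000 bases, 3 of them members. Library 4 was the highest of the 6 libraries for 13 of the 32 members, among them Msmo1, Idi1 and Pmvk. It was also the highest for 4180 of the 12936 genes tested. Without it, 13 members were called, 4 higher and 9 lower, beside 38.6% of 13077 genes tested (18.7% higher and 19.9% lower), and the median of the members was -0.01. Endothelial markers and most airway epithelial markers were low. Of the macrophage markers Lyz2 and Cd14 stood highest, with Cd14 at 15.4 ± 1.10 CPM in co-culture, against 15.4 ± 1.18 CPM in controls. Of 8 airway epithelial markers, 4 had at most 10 reads in every library, the basal cell keratins Krt5 and Krt14 had 0 reads in all co-culture libraries, and the summed level was 8.23 to 9.10 CPM in co-culture, against 17.6 to 25.7 CPM in controls. Trp63, a basal cell factor, was at 3.20 ± 0.107 CPM in co-culture, against 0.825 ± 0.186 CPM in controls, and rose. Of the summed epithelial level in controls, Krt18, a keratin that cultured smooth muscle can also express, gave 15.8 to 24.1 CPM. In co-culture Krt18 was at 4.54 ± 0.369 CPM, and it fell (log2 fold change -2.19, edgeR adjusted p = 6.08e-04). The 9 macrophage markers summed to 71.1 to 78.1 CPM in co-culture, against 85.4 to 139 CPM in controls, with the leukocyte marker Ptprc at 4 to 7 reads in co-culture and 7 to 13 reads in controls. The 5 endothelial markers summed to 2.32 to 3.02 CPM in co-culture, against 2.47 to 3.47 CPM in controls. The part of other cells in the results was not tested. Of 6 smooth muscle markers tested, 3 fell and 1, Myocd, rose, and the 7 listed summed to 92.8 to 136 CPM in co-culture, against 188 to 223 CPM in controls. Myocd was scarce, with 14 to 16 reads in co-culture libraries and 2 reads in each control library. Cnn1, among those that fell, was scarce too, with 6 to 10 reads in co-culture and 12 to 19 reads in controls. Acta2 stood at 60.3 ± 16.6 CPM in co-culture, against 136 ± 14.3 CPM in controls (SD, n = 3 each), whereas Myh11, the mature smooth muscle myosin, was at 0.892 ± 0.0677 CPM in co-culture, against 1.25 ± 0.492 CPM in controls, and Des had 4 to 11 reads per library and was not tested. In bulk RNA, a change in the share of a cell type and a change in RNA per cell cannot be told apart.

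**Figure D3:**
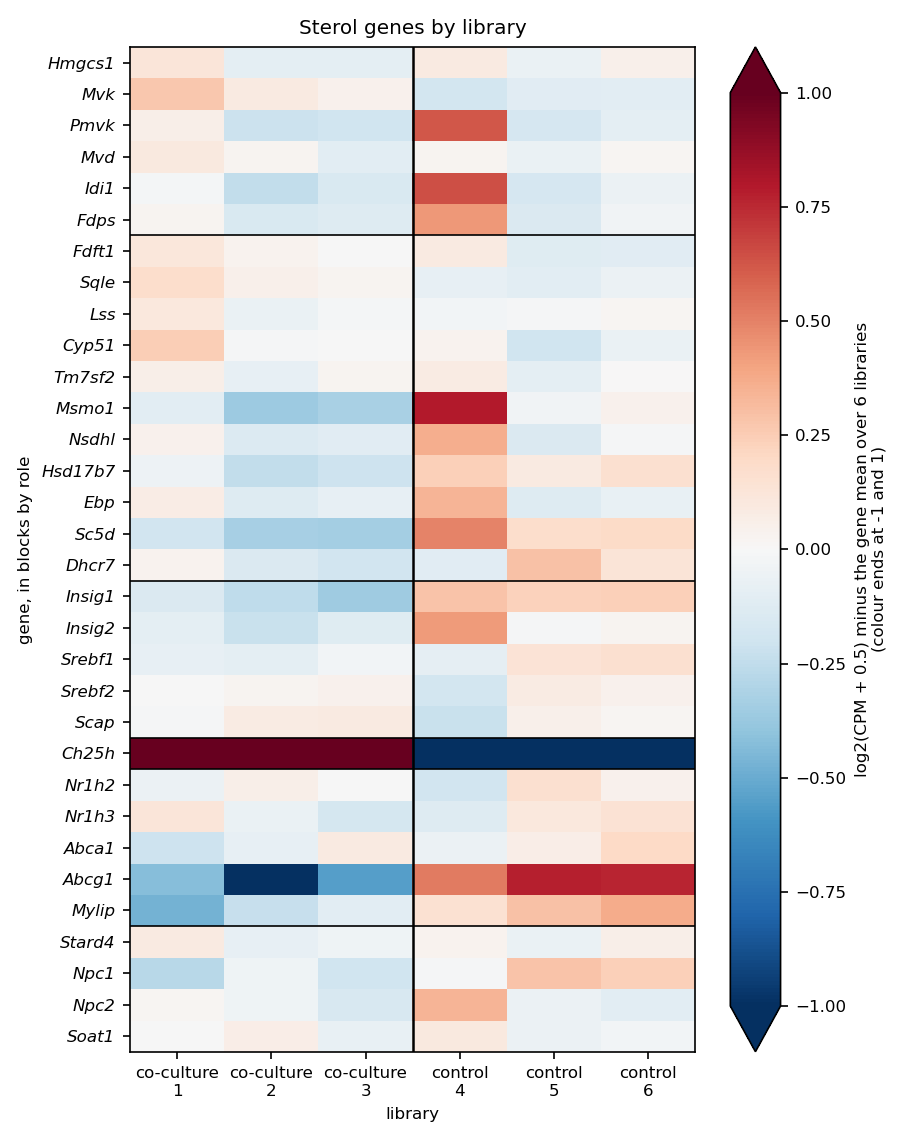
Level of each of the 32 genes in each library as log2(CPM + 0.5) minus the gene's mean over 6 libraries, with co-culture libraries 1 to 3 on the left and control libraries 4 to 6 on the right of the line. Ch25h, at 23.6 to 26.5 CPM in co-culture, against 2.44 to 3.46 CPM in controls, splits the groups. Control library 4 alone is high in Msmo1, Idi1 and Pmvk.

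The promoters of 5 genes, each the 250 bases before a RefSeq start and wholly outside the annotated gene, are shown because they belong to 4 members that moved, Ch25h, Mylip, Insig1 and Sc5d, and to Hmgcs1, a classic SREBP target that did not pass. They come from RefSeq on GRCm38.p6, the assembly that mm10 denotes, run 5′ to 3′ on the gene's strand, and are in lower case with capitals at 4 motifs searched on both strands: the SREBP element TCACNCCAC, the CCAAT box bound by NF-Y, a partner of SREBP, the E-box CACGTG, and a loose LXR element of paired half-sites, GGTNA and GGTNA again on the same strand with any 5 bases between. The CCAAT box reads ATTGG where it lies on the other strand. The motifs do not overlap each other in these windows.
Ch25h (chr19:34475149-34475398, minus strand): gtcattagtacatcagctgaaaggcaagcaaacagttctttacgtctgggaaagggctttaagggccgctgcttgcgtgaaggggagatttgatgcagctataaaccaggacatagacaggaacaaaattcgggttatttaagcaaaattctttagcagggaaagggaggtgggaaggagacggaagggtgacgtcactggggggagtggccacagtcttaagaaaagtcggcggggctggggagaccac
Mylip (chr13:45389492-45389741, plus strand): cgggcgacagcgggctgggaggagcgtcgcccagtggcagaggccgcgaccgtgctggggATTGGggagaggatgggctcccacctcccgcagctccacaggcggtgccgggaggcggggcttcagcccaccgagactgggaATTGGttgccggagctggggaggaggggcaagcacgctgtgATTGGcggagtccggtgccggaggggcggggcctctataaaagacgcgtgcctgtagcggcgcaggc
Insig1 (chr5:28071162-28071411, plus strand): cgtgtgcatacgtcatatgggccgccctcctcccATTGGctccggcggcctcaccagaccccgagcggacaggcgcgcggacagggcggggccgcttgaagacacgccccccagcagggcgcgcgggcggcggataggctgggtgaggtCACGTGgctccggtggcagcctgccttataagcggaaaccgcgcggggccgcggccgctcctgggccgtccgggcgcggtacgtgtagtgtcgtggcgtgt
Sc5d (chr9:42264301-42264550, minus strand): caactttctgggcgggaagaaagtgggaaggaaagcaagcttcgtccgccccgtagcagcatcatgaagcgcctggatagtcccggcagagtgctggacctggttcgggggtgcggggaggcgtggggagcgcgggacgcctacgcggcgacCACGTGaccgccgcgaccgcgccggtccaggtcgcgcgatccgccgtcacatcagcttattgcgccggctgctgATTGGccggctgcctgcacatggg
Hmgcs1 (chr13:119690101-119690350, plus strand): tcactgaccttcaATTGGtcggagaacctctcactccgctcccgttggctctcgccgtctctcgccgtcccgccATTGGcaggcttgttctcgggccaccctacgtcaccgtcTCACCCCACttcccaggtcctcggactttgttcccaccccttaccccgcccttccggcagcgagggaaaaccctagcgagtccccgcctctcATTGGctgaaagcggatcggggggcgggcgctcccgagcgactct

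A promoter window was found for 26 of the 32 members, some with several starts, 35 windows in all, of which 17 reach into the annotated gene, whose span begins farther out. The E-box lies in 6 of the 35 windows (17.1%), those of Insig1, Sc5d, Hsd17b7, Dhcr7, Scap and Abca1, and in 6.02% of all 32851 windows. It begins 101 bases before the start in Insig1, 98 in Sc5d and 143 in Hsd17b7, the 3 synthesis and control genes that fell, and each of these also holds a CCAAT box. Dhcr7, which was not called with all libraries, also holds both motifs among its windows. Scap and Abca1, also not called, hold the E-box but no CCAAT box in theirs. Mylip, which fell, holds a CCAAT box but no E-box. A CCAAT box lies in 22 of the 35 windows (62.9%), from 21 members, and in 33.8% of all windows. The SREBP element as written was found in 1 of the 35 windows, that of Hmgcs1, beginning 137 bases before its start, and in 1.05% of all windows. The loose LXR element was found in 2 of the 35 windows, those of Abca1 and Srebf1, and in 0.621% of all windows. In Abca1 it begins 67 bases before the start used, inside the annotated gene, which reaches 93 bases into that window. The Hsd17b7 window overlaps its gene by 37 bases, with the E-box outside the overlap. None of the 4 motifs as written lies in the Ch25h window. A match of letters is a description of the window and says nothing of binding in these cells.

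The mevalonate enzymes carry carbon to farnesyl pyrophosphate, the branch point for sterols and protein prenylation. With all libraries, none of the 6 passed the main edgeR test or DESeq2 (0 higher and 0 lower). Of them 1, Mvk, had an unadjusted p under 0.05 in edgeR, and log2 fold changes of the 6 ran from -0.32 to 0.27. Hmgcs1, the HMG-CoA synthase at the head of the pathway, had 448, 385 and 384 CPM in co-culture, against 439.6, 394 and 427 CPM in controls, so the groups overlapped fully. Its log2 fold change was -0.05 (95% interval -0.27 to 0.17). Mevalonate kinase, Mvk, had 69.0, 60.7 and 59.0 CPM in co-culture, against 50.3, 52.8 and 53.1 CPM in controls. Every co-culture library lay above every control, as it did for 20.4% of all genes tested, and the adjusted p narrowly missed the threshold (0.27 ± 0.08, SE; edgeR adjusted p = 0.0515). Mvk was called higher without control library 4 (0.25, edgeR adjusted p = 0.018) and with robust dispersion on all libraries (0.27, edgeR adjusted p = 0.0494). Its adjusted p ran from 0.018 to 0.157 over its alternatives.

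Several steps to farnesyl pyrophosphate were high in library 4. The isomerase Idi1 had 245, 209.8 and 223 CPM in co-culture, against 389, 221 and 238 CPM in controls. Phosphomevalonate kinase, Pmvk, had 49.4, 40.8 and 41.3 CPM in co-culture, against 73.5, 42.1 and 44.4 CPM in controls. In both genes control libraries 5 and 6 lay within or beside the co-culture range and library 4 lay far above it. Farnesyl pyrophosphate synthase, Fdps, was at 202 ± 14.1 CPM in co-culture, against 230.2 ± 50.9 CPM in controls, with 288 CPM in library 4. The decarboxylase Mvd was at 47.4 ± 3.39 CPM in co-culture, against 46.8 ± 1.66 CPM in controls. Without library 4 the change of Idi1 was -0.02, that of Pmvk 0.02 and that of Fdps 0.00, and none of them was called.

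**Figure D4:**
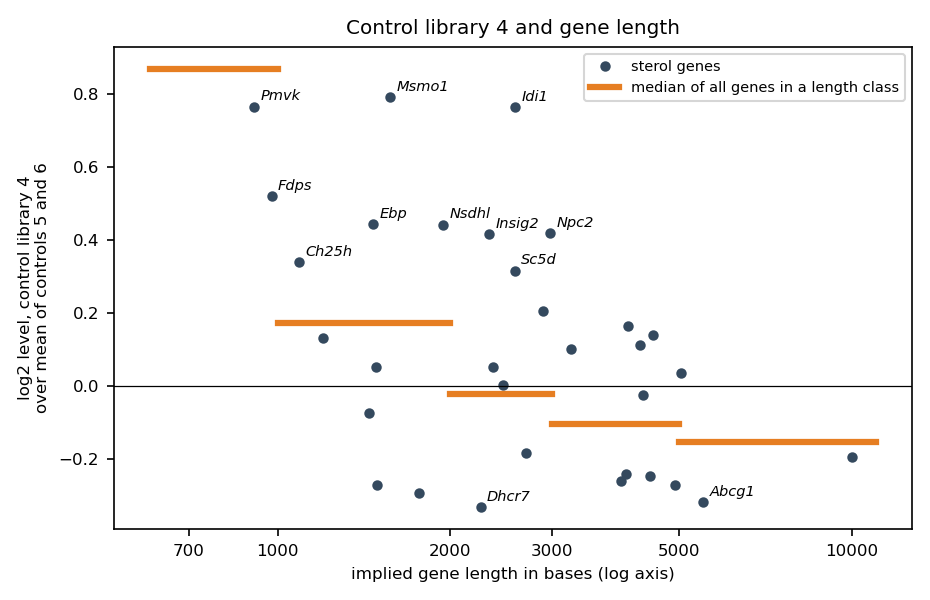
Log2 ratio of the level in control library 4 to the mean of control libraries 5 and 6, against the gene length implied by the deposited counts and FPKM (log axis). Points are the 32 sterol genes and orange lines are medians of all genes tested in each length class, which run from 0.87 in genes of at most 1000 bases to -0.15 in genes over 5000 bases. Msmo1, Idi1 and Pmvk lie highest among the sterol genes, and Dhcr7 lies lowest.

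From squalene onward, 2 of 11 enzymes (18.2%) fell and none rose, beside 10.3% lower and 10.3% higher among all genes tested. Sc5d, the lathosterol oxidase that makes the substrate of Dhcr7 (gene ID 235293, chromosome 9, 42251592 to 42264300 of GRCm38.p6, the build of all gene positions given), had 135, 122 and 121 CPM in co-culture, against 218, 174 and 176 CPM in controls. The groups lay well apart, with library 4 the highest control, and Sc5d fell by 0.59 ± 0.10 (edgeR adjusted p = 0.0106). Without library 4 it fell by 0.47 (edgeR adjusted p = 4.70e-05), and it missed the threshold when co-culture library 2 (0.0544) or 3 (0.0579) was left out, with adjusted p from 4.70e-05 to 0.0579 over its alternatives. Hsd17b7, the ketone reductase that works in removal of the sterol methyl groups (gene ID 15490, chromosome 1, 169949535 to 169969242), had 73.9, 64.5 and 66.3 CPM in co-culture, against 90.4, 81.5 and 85.7 CPM in controls. It fell by 0.33 ± 0.08 (edgeR adjusted p = 0.0272), and missed the threshold when co-culture library 2 (0.107), co-culture library 3 (0.114) or control library 6 (0.0851) was left out, with adjusted p from 0.00439 to 0.114 over its alternatives.

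Msmo1, the methyl sterol oxidase that begins this removal, had the values most divided by library 4. It had 197, 165 and 169 CPM in co-culture, against 367, 207 and 218 CPM in controls, so the groups did not overlap but the controls spread widely. With all libraries it did not pass (-0.58 ± 0.23, edgeR adjusted p = 0.12). Without library 4 it was called at a smaller size, -0.26 (edgeR adjusted p = 0.013), with adjusted p from 0.013 to 0.288 over its alternatives. Nsdhl, the decarboxylating dehydrogenase of the same enzyme set, was at 85.2 ± 5.90 CPM in co-culture, against 94.7 ± 17.98 CPM in controls, with no call (-0.15 ± 0.14).

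Squalene epoxidase, Sqle, a rate-limiting enzyme of the sterol branch, stood on the other side. It had 205, 188 and 185 CPM in co-culture, against 172, 168 and 174 CPM in controls, and all co-culture libraries were above all controls. The change of 0.17 ± 0.07 did not pass with all libraries (edgeR adjusted p = 0.119), and was called without library 4 at the same size, 0.17 (edgeR adjusted p = 0.0371, and 0.0371 to 0.345 over its alternatives). Squalene synthase, Fdft1, was at 215 ± 9.02 CPM in co-culture, against 202 ± 16.99 CPM in controls, and it too was called only without library 4 (0.16, edgeR adjusted p = 0.0305, and 0.0305 to 0.724 over its alternatives). Lanosterol demethylase, Cyp51, was at 310.0 ± 32.7 CPM in co-culture, against 279 ± 22.3 CPM in controls (0.15 ± 0.10) and was called in none of its alternatives. Lanosterol synthase, Lss, was at 97.9 ± 6.19 CPM in co-culture, against 96.7 ± 1.41 CPM in controls.

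The remaining late enzymes did not pass with all libraries. The sterol reductase Tm7sf2 was at 22.7 ± 1.17 CPM in co-culture, against 22.6 ± 1.45 CPM in controls, and the isomerase Ebp was at 26.1 ± 1.996 CPM in co-culture, against 28.1 ± 5.24 CPM in controls. Dhcr7, the reductase of the final step, had 41.8, 36.8 and 35.7 CPM in co-culture, against 37.6, 49.9 and 44.6 CPM in controls. Library 4 was the lowest control here, inside the co-culture range. Dhcr7 did not pass with all libraries (-0.21 ± 0.12) and was called lower without library 4 (-0.31, edgeR adjusted p = 0.00978, and 0.00978 to 0.541 over its alternatives).

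Summed over the 17 synthesis genes, the level was 2554, 2237 and 2250.2 CPM in co-culture, against 2964, 2298 and 2425 CPM in controls. The co-culture values spanned those of control libraries 5 and 6, and library 4 lay above both. The mean was 2347 ± 179 CPM in co-culture, against 2562 ± 354 CPM in controls (SD, n = 3 each), a difference smaller than the spread of the controls (exact permutation test, two-sided p = 0.5, where the smallest possible is 0.1). The 95% intervals of 14 of the 15 synthesis genes that were not called lay within a 2-fold change in either direction. The exception was Msmo1, whose interval ran from -1.11 to -0.04.

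Among the genes that control SREBP, 1 of 5 (20%) was called, lower, and none rose, beside 20.6% of all genes called in either direction. Insig1, the endoplasmic reticulum protein that retains SCAP and is itself an SREBP target (gene ID 231070, chromosome 5, 28071412 to 28078662), had 255, 237 and 221 CPM in co-culture, against 345, 332 and 333 CPM in controls. The 3 controls lay close together, library 4 included, and all lay above co-culture. Insig1 fell by 0.50 ± 0.08 (edgeR adjusted p = 0.00568) and was called in all 10 alternatives, with log2 fold changes of -0.56 to -0.45. Its paralog Insig2, which is not driven by SREBP in the same way, had 39.9, 36.7 and 39.5 CPM in co-culture, against 57.6, 42.6 and 43.8 CPM in controls. The groups did not overlap, but Insig2 did not pass (-0.31 ± 0.13, edgeR adjusted p = 0.133). Whether the paralogs differed in their change was not tested.

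The SREBP genes themselves did not pass. Srebf2, whose product drives mainly the sterol genes, was at 305 ± 4.79 CPM in co-culture, against 298 ± 28.7 CPM in controls (0.04, 95% interval -0.17 to 0.24). Srebf1, whose products drive mainly fatty acid synthesis, had 115, 114 and 119 CPM in co-culture, against 115, 134 and 136 CPM in controls. Its change of -0.14 ± 0.08 did not pass with all libraries, and without library 4 it was called at -0.22 (edgeR adjusted p = 0.00403, and 0.00403 to 0.636 over its alternatives). Scap was at 149 ± 5.94 CPM in co-culture, against 139 ± 14.1 CPM in controls (0.10 ± 0.09).

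Ch25h, cholesterol 25-hydroxylase (gene ID 12642, chromosome 19, 34473783 to 34475148), is an enzyme of the endoplasmic reticulum that macrophages and other cells induce in inflammation. It had 509, 465 and 442 reads in co-culture and 56, 55 and 45 reads in controls, or 26.5, 25.6 and 23.6 CPM in co-culture, against 3.46, 3.03 and 2.44 CPM in controls. The lowest co-culture library lay several times above the highest control. Ch25h rose by 3.09 ± 0.14 on the log2 scale (edgeR adjusted p = 7.77e-05), was called in all 10 alternatives, and ranged from 2.99 to 3.20 over them. Per gene length its level was 23.2 ± 1.35 FPKM in co-culture and 2.73 ± 0.468 FPKM in controls, which put it at rank 21 of the 32 members in co-culture and rank 31 in controls. Beside it, of the 7 macrophage markers tested, Mrc1 was higher (0.55, edgeR adjusted p = 0.0248), Csf1r was lower (-1.39, edgeR adjusted p = 0.00562) and 5 were not called. Lyz2, the most abundant of them, was at 39.4 ± 3.17 CPM in co-culture, against 69.7 ± 29.2 CPM in controls, with 103 CPM in control library 4. The part of macrophages in the level of Ch25h was not tested.

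The LXR block held the widest spread of changes after Ch25h. Abcg1, which passes cholesterol to high-density lipoprotein (gene ID 11307, chromosome 17, 31057694 to 31117984), was scarce in these cells, with 12, 4 and 10 reads in co-culture, against 27, 38 and 38 reads in controls. These are 0.625, 0.221 and 0.535 CPM in co-culture, against 1.67, 2.09 and 2.06 CPM in controls, with no overlap. Abcg1 fell by 2.06 ± 0.32 (edgeR adjusted p = 0.00677) and was called in all 10 alternatives, with log2 fold changes of -2.34 to -1.73. So few reads leave its 95% interval wide, at -2.82 to -1.29.

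Mylip, the ubiquitin ligase that sends lipoprotein receptors for degradation (gene ID 218203, chromosome 13, 45389742 to 45411940), had 41.9, 49.6 and 54.1 CPM in co-culture, against 64.8, 71.6 and 75.5 CPM in controls. It fell by 0.54 ± 0.11 (edgeR adjusted p = 0.0168). The groups did not overlap, as was so for 22.5% of all genes in the downward direction. Mylip missed the threshold when co-culture library 2 (0.0633), control library 5 (0.0528) or control library 6 (0.0631) was left out, with adjusted p from 1.95e-04 to 0.0633 over its alternatives.

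Abca1, the exporter that loads lipid onto apolipoprotein A-I, did not pass. It had 395, 431 and 485 CPM in co-culture, against 437, 476 and 522 CPM in controls, with groups that overlapped, and its change of -0.13 (95% interval -0.39 to 0.13) was called in none of the alternatives. The receptors were near level. Nr1h2, which encodes LXR-beta, was at 45.0 ± 1.87 CPM in co-culture, against 45.3 ± 5.49 CPM in controls. Nr1h3, which encodes LXR-alpha, was at 8.73 ± 0.978 CPM in co-culture, against 9.28 ± 0.985 CPM in controls. Per gene length the exporters were far apart in level, with Abca1 at 43.8 ± 4.55 FPKM in co-culture and 47.9 ± 4.29 FPKM in controls, and Abcg1 at 0.0836 ± 0.0385 FPKM in co-culture and 0.353 ± 0.0431 FPKM in controls.

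**Figure D5:**
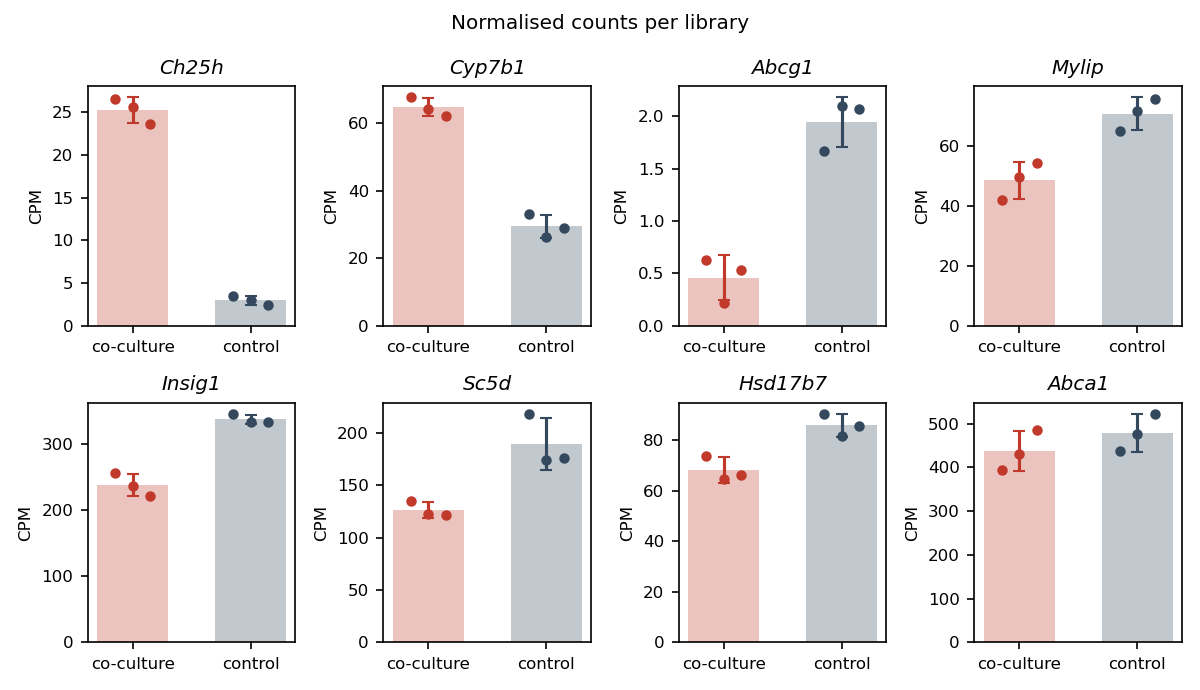
CPM of 8 genes per library, with co-culture (red) left of control (dark blue). Points are libraries, bars are means and error bars are SD over 3 libraries. Ch25h and Cyp7b1 are higher in every co-culture library, Abcg1, Mylip, Insig1, Sc5d and Hsd17b7 are lower in every one, and the groups of Abca1 overlap.

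With all libraries, none of the 4 genes for cholesterol traffic and storage (0 of 4) passed the main edgeR test or DESeq2. Of them 1, Npc1, had an unadjusted p under 0.05 in edgeR. Npc2, which takes up cholesterol in the lysosome and hands it to NPC1, was the most abundant member per length, at 227 ± 14.5 FPKM in co-culture and 249 ± 43.8 FPKM in controls, and library 4 was its highest control. Npc1, the lysosomal export protein, had 79.9, 93.9 and 84.0 CPM in co-culture, against 96.1, 118 and 114 CPM in controls. The groups did not overlap, and Npc1 narrowly missed the threshold (-0.35 ± 0.10, edgeR adjusted p = 0.0541). Without library 4 it was called at -0.43 (edgeR adjusted p = 2.78e-04, and 2.78e-04 to 0.18 over its alternatives). Stard4, a carrier of sterol through the cytosol, was at 121 ± 7.74 CPM in co-culture, against 123 ± 5.57 CPM in controls. Soat1, which esterifies cholesterol for storage in droplets, was at 82.4 ± 3.89 CPM in co-culture, against 82.8 ± 4.79 CPM in controls (-0.01, 95% interval -0.17 to 0.16).

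Other genes of the pathway moved both ways. Of 24 other sterol genes tested, 5 rose, 3 fell and 16 did not pass, or 33.3% called, beside 20.6% of all genes. Without library 4, 7 rose and 4 fell, and without co-culture library 1 or 3, 2 rose and 2 fell. Cyp7b1, the hydroxylase that acts on 25-hydroxycholesterol after Ch25h, had 67.6, 64.3 and 62.2 CPM in co-culture, against 33.2, 26.2 and 29.0 CPM in controls, and rose by 1.14 ± 0.10 (edgeR adjusted p = 7.14e-04). Hsd3b7, which converts the product further and was picked out after its values were seen, was at 29.6 ± 1.42 CPM in co-culture, against 26.3 ± 3.83 CPM in controls, with no call. Among the sterol carriers of the Aster family, which bring cholesterol from the cell surface to the endoplasmic reticulum, Gramd1b had 27.1, 32.4 and 31.97 CPM in co-culture, against 58.6, 77.6 and 68.3 CPM in controls. Gramd1b fell by 1.16 ± 0.12 (edgeR adjusted p = 0.00159), while Gramd1c rose by 0.83 ± 0.12 and Gramd1a by 0.56 ± 0.11. Gramd1a missed the threshold when co-culture library 1 (edgeR adjusted p = 0.0578) or 3 (0.054) was left out, with adjusted p from 8.64e-04 to 0.0578 over its alternatives. Tmem97, a membrane protein that binds sterol and NPC1, had 29.5, 27.3 and 28.5 CPM in co-culture, against 68.9, 46.7 and 46.8 CPM in controls, and fell by 0.93 ± 0.16. The fall of Tmem97 was 0.72 without library 4.

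In the fatty acid arm of SREBP, 2 of 14 genes rose, 2 fell and 10 did not pass, or 28.6% called, beside 20.6% of all genes. Acetyl-CoA carboxylase 2, Acacb, was at 6.80 ± 1.005 CPM in co-culture, against 4.37 ± 0.533 CPM in controls (0.63 ± 0.16), and the acetyl-CoA synthetase Acss2 at 42.6 ± 2.18 CPM in co-culture, against 34.1 ± 2.56 CPM in controls (0.32 ± 0.08). The phosphatidate phosphatase Lpin1 fell by 0.41 ± 0.10 and the fatty acid elongase Elovl5 by 0.37 ± 0.06. Over the alternatives these counts ran from 0 to 2 higher and 0 to 5 lower, fewest without co-culture library 2 or 3 and most without control library 4.

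Levels per gene length spread widely over the members. In co-culture the highest were Npc2 at 227 ± 14.5 FPKM, Fdps at 206 ± 14.4, Hmgcs1 at 125 ± 11.2, Msmo1 at 113 ± 11.1 and Insig1 at 100.3 ± 7.16. The same 5 genes led in controls, at 249 ± 43.8, 236 ± 52.1, 129 ± 7.29, 168 ± 57.2 and 142 ± 2.94 FPKM. Npc2 lay above Fdps in all 6 libraries, while Hmgcs1 lay above Msmo1 in every co-culture library and below it in every control. Nr1h3, at 5.87 ± 0.657 FPKM in co-culture and 6.23 ± 0.662 FPKM in controls, and Abcg1 were the lowest apart from Ch25h in controls.

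The transcript table lists 89 RefSeq transcripts of the members, of which 73 were tested and 3 were called, beside 1.91% of 33858 transcripts tested. They were the single transcript of Ch25h, which rose, the single transcript of Insig1, which fell, and a predicted transcript of Fdft1 (XM_006518547). That Fdft1 transcript had 39.2, 33.8 and 33.5 CPM in co-culture, against 21.0, 19.0 and 22.6 CPM in controls, and rose by 0.77 ± 0.11 (edgeR adjusted p = 0.0382). Its call was lost with no filter on low counts and with any 1 library left out (adjusted p from 0.056 to 0.145 over its alternatives). The Insig1 transcript kept its call only without control library 4 (adjusted p from 0.046 to 0.175), and the Ch25h transcript kept its call in all 7 of these alternatives (0.00243 to 0.0357). No transcript of Abcg1, Mylip, Sc5d or Hsd17b7, which were called as genes, was called. The tested transcript of Abcg1 had edgeR adjusted p = 0.188, and that of Mylip 0.0988. Transcript use within a gene was tested in 18 members and passed in 0 of them (edgeR's diffSpliceDGE, Simes p adjusted over 7671 genes), as it did in 0.443% of genes. The lowest unadjusted Simes p among members was 0.0726, for Fdft1, so 0 were under 0.05 before adjustment as well. Srebf1 counts lay mainly on NM_011480, at 66.7 ± 7.73 CPM in co-culture, against 74.3 ± 11.6 CPM in controls, and NM_001358314, at 41.5 ± 5.13 CPM in co-culture, against 44.6 ± 2.51 CPM in controls.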

How the data were processed

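Estimated counts, FPKM and TPM per gene and per RefSeq transcript were deposited by the authors. HISAT was the aligner named, per the labels' protocols, and mm10 the genome build, per the submitters' processing notes. No counting program, annotation release, library kit or strandedness is stated there. The authors' deposited estimated counts are the values tested. FPKM, per the file headers, divides by length and depth. Control columns are numbered 4 to 6 whereas labels number controls from 1, so they were used as the control group, and 21 per-sample columns of FPKM and TPM were not used. Counts were not whole in a library for 4 members (Fdft1, Idi1, Npc1 and Stard4), by more than 0.001. Gene lengths for FPKM given here were those implied by co-culture counts and FPKM, with TMM-scaled libraries.

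Counts were rounded and tested with edgeR 4.0.16 (R 4.3.3): filterByExpr, TMM, quasi-likelihood test, no covariate, Benjamini-Hochberg over all genes, called at adjusted p under 0.05. SE is the absolute log2 fold change over the root of F. Values after ± are SD over 3 libraries for levels and SE for log2 fold changes. Tests were checked on simulated data. Alternatives were DESeq2 1.42.0, its size factors in edgeR, no filter, robust dispersion and leaving out each library. Gene IDs of all 32 members matched RefSeq GRCm38.p6. The members, lists and motifs were chosen with earlier results of these data known. All members were named, and of other lists those called with the largest changes. Without strand, reads of overlapping genes cannot be told apart: in the annotation Fdft1, Tm7sf2, Srebf1, Nr1h3 and Npc1 each overlap 1 other protein-coding gene.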

Additional observations from a re-analysis of the deposited data

How the results depend on the processing

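No paired analysis was possible because the control columns carry the numbers 4 to 6, which no label ties to the replicate numbers of the samples. Without each library in turn, genes called numbered 612 to 2445 higher and 598 to 2598 lower, members called 1 to 4 higher and 2 to 9 lower, the median of the members -0.15 to -0.014, and transcripts of members called 1 to 3. The counts of called genes and members were highest without control library 4. Robust dispersion called 2 members higher, adding Mvk, and no filter called 1 transcript of the members. DESeq2, its size factors in edgeR, no filter and robust dispersion kept all 6 calls. The members that changed sign were called in no fit. Most were near 0, but Pmvk (-0.28 with all libraries), Fdps (-0.19), Nsdhl (-0.15), Npc2 (-0.13) and Ebp (-0.10) changed sign only without control library 4. With DESeq2 size factors Nr1h2 was at 0.00060 and Soat1 at 0.0078, and with DESeq2 Soat1 was at 0.0065. With each library left out, log2 fold changes ran from -0.43 to 0.020 for Pmvk, -0.028 to 0.074 for Mvd, -0.30 to 0.0043 for Fdps, -0.034 to 0.054 for Lss, -0.042 to 0.051 for Tm7sf2, -0.26 to 0.0096 for Nsdhl, -0.19 to 0.058 for Ebp, -0.042 to 0.086 for Srebf2, -0.10 to 0.068 for Nr1h2, -0.075 to 0.028 for Stard4, -0.19 to 0.022 for Npc2 and -0.040 to 0.042 for Soat1. The cause was not tested. With 4 to 38 reads per library, Abcg1 is the member most limited by depth.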
